A study of Mus musculus with 12 samples.

Results

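The genes described here are the 10 genes of the deposited table that lie nearest the start of mouse chromosome 15, in genome order Gm7666, Wdr70, Nup155, Nadk2, Skp2, Rad1, Amacr, Golph3, 6030458C11Rik and Drosha, out of 982 genes in the table. They were chosen by their position, and the limit at Drosha was set from levels already seen in these libraries, so their levels relative to sgControl are given as a description. Transcription was measured in 6DT1 cells, a mammary cancer line of FVB/NJ mice derived from a MMTV-Myc tumor. Total RNA was sequenced from 12 libraries in 4 groups of 3. Per the labels all 4 groups were grown in DMEM with 10% FBS and puromycin, although the study's methods describe sorting by GFP for its CRISPR lines and antibiotic selection for its knockdown lines. The sgControl group is wild type per the labels and carries a scrambled control guide, and sg1, sg2 and sg3 are labelled Resf1 KO and carry 3 different guides against Resf1, the gene of retroelement silencing factor 1. The study's methods describe the knockout lines as single-cell clones and do not say this of sgControl, and the labels describe dishes seeded in triplicate. The 3 libraries of a group are therefore taken as dishes of 1 line, p-values measure the spread between dishes, and guide and clone cannot be told apart in sg1, sg2 and sg3. Resf1 itself was not analysed here.

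Mouse chromosomes are acrocentric, so the start of chromosome 15 is its centromeric end. The 10 genes share a location and not a pathway. Drosha is the nuclear ribonuclease that, with its cofactor DGCR8, cuts primary miRNA transcripts into hairpin precursors. Skp2 is the F-box protein with which the SCF ubiquitin ligase recognises the cell-cycle inhibitor p27, and Rad1 is a subunit of the 9-1-1 clamp that is loaded at damaged DNA. Nup155 is a scaffold protein of the nuclear pore. Golph3 is a Golgi protein that binds phosphatidylinositol 4-phosphate, Nadk2 is the mitochondrial NAD kinase, and Amacr is the racemase that lets branched-chain fatty acids and bile acid intermediates enter beta-oxidation. Wdr70 is a WD repeat protein. 6030458C11Rik is an uncharacterised protein-coding gene and Gm7666 a pseudogene.

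Positions were taken from GENCODE release M21 on GRCm38, and the mouse build used by the authors is not given in the sources used here, since the study's methods name a human genome for their RNA-seq alignment. Gm7666 is annotated as a transcribed processed pseudogene of 1 exon at chr15:6653923-6654741 on the plus strand. The other 9 genes are protein coding. Wdr70 (chr15:7873055-8099209, minus strand) and Nup155 (chr15:8109273-8161247, plus strand) are transcribed away from each other from start sites 10064 bp apart. Nadk2 (chr15:9071260-9110891, plus strand) and Skp2 (chr15:9111985-9155425, minus strand) run towards each other and their ends are 1093 bp apart. Rad1 follows at chr15:10486018-10499063, Amacr at chr15:10981756-10996626 and Golph3 at chr15:12321450-12351591, all on the plus strand. 6030458C11Rik (chr15:12808177-12824649, minus strand) and Drosha (chr15:12824815-12935291, plus strand) start 166 bp apart on opposite strands. Together, Wdr70 to Drosha cover 5.06 Mb with 38 annotated protein-coding genes, of which 9 (23.7%) are in the table. The other annotated genes of this interval were not analysed here.

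The promoter sequences of the neighbouring genes are shown because the levels of these genes moved together across the lines, and because a pair of them is read from nearly the same DNA. A link between these sequences and the levels was not tested. RefSeq windows from 250 bases before to 50 bases after a start site (GRCm38.p6) were matched for 7 of the 10 genes, in 9 windows, since Skp2 and Rad1 have 2 starts each. Gm7666, Nadk2 and Amacr had no window. Capitals mark each match to CGGAAG, the core of the sites bound by ETS family factors, or to its reverse complement CTTCCG. The windows are Wdr70 (chr15:8099160-8099459, minus strand), Nup155 (chr15:8109063-8109362, plus strand), Golph3 (chr15:12321246-12321545, plus strand) and Drosha (chr15:12824565-12824864, plus strand), each written 5′ to 3′.
Wdr70: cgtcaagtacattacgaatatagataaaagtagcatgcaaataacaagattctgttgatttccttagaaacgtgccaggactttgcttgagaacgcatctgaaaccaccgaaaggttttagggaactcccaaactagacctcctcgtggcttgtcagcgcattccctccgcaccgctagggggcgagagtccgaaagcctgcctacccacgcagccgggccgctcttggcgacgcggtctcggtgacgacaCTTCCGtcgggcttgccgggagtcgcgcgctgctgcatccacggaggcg
Nup155: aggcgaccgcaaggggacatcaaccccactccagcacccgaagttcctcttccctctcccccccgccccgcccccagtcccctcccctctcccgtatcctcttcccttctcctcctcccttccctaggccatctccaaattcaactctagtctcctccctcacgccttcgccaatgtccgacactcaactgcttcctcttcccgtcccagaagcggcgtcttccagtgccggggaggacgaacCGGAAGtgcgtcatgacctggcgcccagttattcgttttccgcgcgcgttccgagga
Golph3: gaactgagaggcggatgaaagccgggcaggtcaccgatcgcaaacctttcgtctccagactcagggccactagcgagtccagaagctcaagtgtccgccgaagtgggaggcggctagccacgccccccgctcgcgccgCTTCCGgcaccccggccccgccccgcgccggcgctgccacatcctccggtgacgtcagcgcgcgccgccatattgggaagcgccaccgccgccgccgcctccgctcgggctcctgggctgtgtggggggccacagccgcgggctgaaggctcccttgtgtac
Drosha: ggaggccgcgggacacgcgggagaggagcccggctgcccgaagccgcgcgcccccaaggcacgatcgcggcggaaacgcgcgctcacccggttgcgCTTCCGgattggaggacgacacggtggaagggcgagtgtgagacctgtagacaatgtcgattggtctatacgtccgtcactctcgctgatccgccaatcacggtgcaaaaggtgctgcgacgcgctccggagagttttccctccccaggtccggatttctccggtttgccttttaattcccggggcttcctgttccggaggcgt
The Drosha window shares 257 of its 300 bases with that of 6030458C11Rik (chr15:12824608-12824907, minus strand), so the CTTCCG in the one is the CGGAAG in the other. The Drosha window is 64.3% G and C and holds 37 CG dinucleotides, where the median over all windows is 52.7% G and C.

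CGGAAG, on either strand, was found in 8 of the 9 windows and in at least 1 window of each of the 7 genes, against 16.9% of 32851 mouse promoter windows. The window without it is the second Skp2 window, with 43.7% G and C. The 8 windows with it had 56.0% to 71.3% G and C, and among all 10831 windows in that range 29.5% held it. This motif was picked after the sequences had been read, the windows of Drosha and 6030458C11Rik overlap, and both Rad1 windows overlap, so the count is a description only. Other motifs were searched in the same windows on both strands. The E-box CACGTG was in none of the 7 genes' windows, against 7.15% of all windows and 10.4% of those in that range of G and C content. The GC box GGGCGG was in 3 of the 9 windows, those of Nup155, Golph3 and Skp2, against 35.7% of all windows and 66.3% of those in the range. A stretch of 4 runs of 3 G separated by 1 to 7 bases, a G-quadruplex pattern, was in 1 of the 9 windows, that of Nup155, against 18.5% and 30.8%. Predicted quadruplexes with shorter G runs, which the paper reports as enriched at its top RESF1-associated sites, were not searched. In the Nup155 window the GC box matches overlap each other.

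The deposited values are gene counts divided by a size factor of each library, called normalized counts below. Drosha, the gene that ends the group, was measured at 2781, 2894 and 2747 normalized counts in sgControl, 2881, 3124 and 2937 in sg1, 2025, 2107 and 2058 in sg2, and 2279, 2414 and 2151 in sg3. All 6 libraries of sg2 and sg3 were below all 6 of sgControl and sg1, while sg1 overlapped sgControl. Its mean was 2807 ± 77.1 in sgControl (SD, n = 3), and sg2 stood at 73.5% and sg3 at 81.3% of it. On the log2(value + 1) scale used for all differences below, sg1 differed from sgControl by 0.09 (SE 0.053), sg2 by -0.44 and sg3 by -0.30. The sg1 difference was -0.13 with scaling to the table total and -0.07 with the median of ratios over the table. These are bulk libraries, in which fewer cells of a type and less RNA per cell cannot be told apart.

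6030458C11Rik, which starts beside Drosha on the other strand, had 964.8, 984.0 and 895.2 normalized counts in sgControl, 1046, 1057 and 951.3 in sg1, 740.7, 728.9 and 692.8 in sg2, and 783.3, 743.1 and 761.9 in sg3. The libraries divided as for Drosha, with sg2 and sg3 below the other groups and no overlap between them. It differed from sgControl by 0.10 with sg1, by -0.39 with sg2 and by -0.31 with sg3 (SE 0.063 each). Its sg1 difference was -0.11 with scaling to the table total and -0.05 with the median of ratios over the table.

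Skp2, the substrate receptor for p27, had 1694, 1733 and 1566 normalized counts in sgControl, 1523, 1499 and 1545 in sg1, 1283, 1322 and 1312 in sg2, and 1426, 1447 and 1386 in sg3. Unlike Drosha, all sg1 libraries lay below all sgControl libraries here, and sg2 and sg3 lay lower still. The sg1, sg2 and sg3 means were 91.5%, 78.5% and 85.3% of sgControl. Rad1, the clamp subunit, had 312.4, 309.3 and 288.9 normalized counts in sgControl, 307.3, 347.2 and 310.5 in sg1, 235.1, 221.1 and 214.4 in sg2, and 200.2, 229.1 and 239.1 in sg3. For Rad1, sg1 overlapped sgControl, and sg2 and sg3 overlapped each other at 73.6% and 73.4% of the sgControl mean.

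Nup155, the pore scaffold gene, had 3580.0, 3689 and 3520.0 normalized counts in sgControl, 3774, 3733 and 3826 in sg1, 2605, 2791 and 3004 in sg2, and 2741, 2887 and 3002 in sg3. Each sg1 library was above each sgControl library, and the sg2 and sg3 libraries overlapped each other well below both. The sg1 difference of Nup155 was 0.07 and not past the threshold (limma adjusted p = 0.219), and it was -0.14 with scaling to the table total and -0.08 with the median of ratios over the table. Its head-to-head neighbour Wdr70 had 663.2, 657.2 and 672.2 normalized counts in sgControl, 714.6, 710.8 and 653.9 in sg1, 498.9, 489.9 and 494.4 in sg2, and 535.5, 497.2 and 497.3 in sg3. Wdr70 was at 74.4% of sgControl in sg2 and 76.8% in sg3, and its sg1 libraries reached on both sides of sgControl.

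Golph3, the Golgi gene, had 2937, 3026 and 3059 normalized counts in sgControl, 3410.0, 3558 and 3548 in sg1, 2305, 2416 and 2304 in sg2, and 2320.0, 2448 and 2462 in sg3. It was the member with the highest sg1 values relative to sgControl, at 116.6% of the sgControl mean with no overlap, a difference of 0.22 that was 0.0079 with scaling to the table total and 0.0668 with the median of ratios over the table. The level in sg2 was 77.9% and in sg3 80.1% of sgControl.

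Nadk2, the mitochondrial NAD kinase gene, had 467.7, 494.3 and 532.0 normalized counts in sgControl, 512.5, 485.9 and 513.8 in sg1, 351.0, 347.5 and 373.0 in sg2, and 431.8, 375.4 and 372.3 in sg3. The sg1 libraries lay within the range of sgControl, and every sg2 and sg3 library lay below both. Amacr, the racemase gene, was the lowest member, with 99.23, 107.9 and 91.52 normalized counts in sgControl, 80.81, 96.98 and 90.61 in sg1, 65.82, 60.74 and 59.26 in sg2, and 52.38, 75.08 and 41.97 in sg3. Its values came from an estimated 45 to 119 reads per library, and its interval for sg3 against sgControl was the widest of the 10, from -1.23 to -0.45 around -0.84.

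Gm7666, the pseudogene at the start of the list, had 1768, 1918 and 1772 normalized counts in sgControl, 1605, 1583 and 1545 in sg1, 1557, 1616 and 1685 in sg2, and 1551, 1794 and 1635 in sg3. Its pattern differed from the rest, since its 3 edited lines overlapped each other at 86.7%, 89.0% and 91.2% of sgControl. Its Pearson correlation with the mean log2 profile of the other 9 genes over the 12 libraries was 0.26, where each of the others had 0.84 or more, with Drosha highest at 0.97. The points share their libraries and the lines' differences, so this is a description. Its values came out as whole reads (within 0.05) in 1 of 12 libraries, against 12 of 12 for Drosha, Skp2, Rad1, Amacr, Nadk2 and 6030458C11Rik. How genes were counted is not known, so the cause of the fractions was not tested and the level of Gm7666 is uncertain. Wdr70, Golph3 and Nup155 came out as whole reads in 5, 9 and 10 of 12 libraries, so they also had some fractional estimates.

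**Figure D1:**
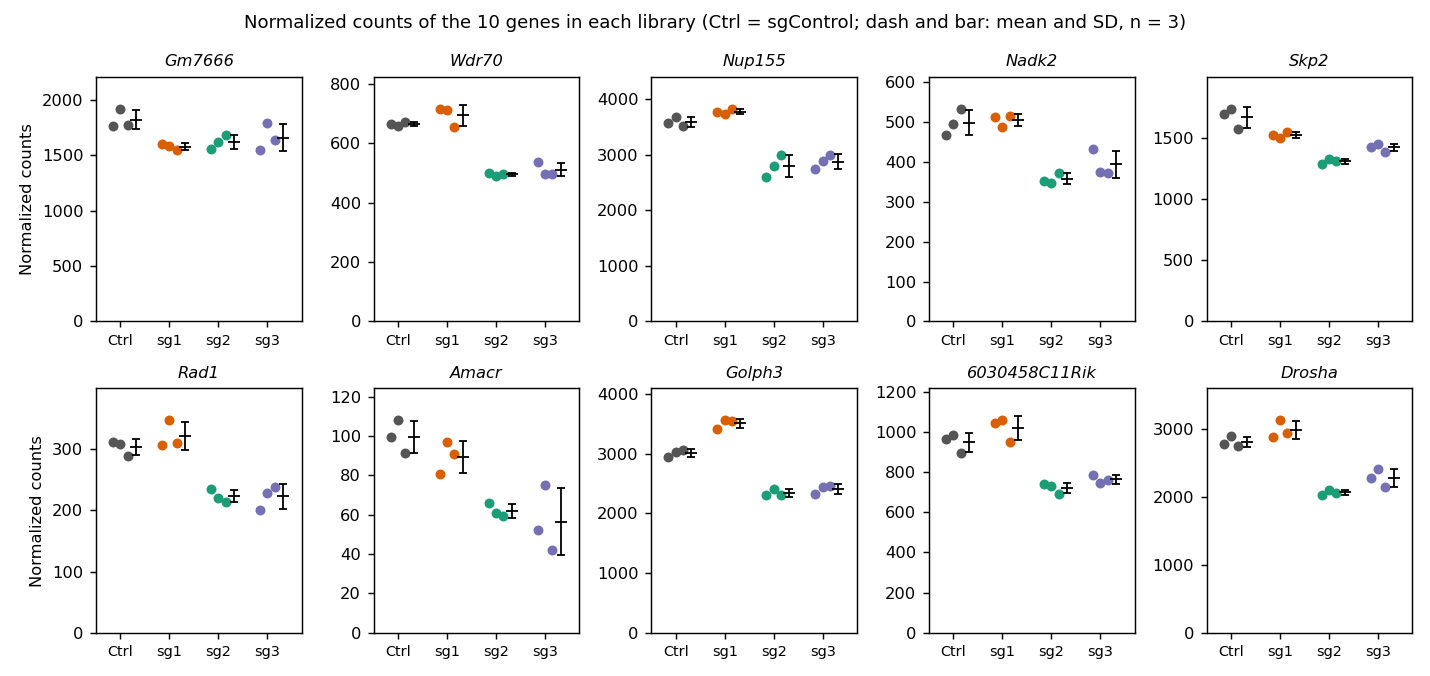
Normalized counts of each of the 10 genes (vertical axis, from 0) in the 3 libraries of each group (points), with the mean and SD (n = 3) beside them. In all panels but that of Gm7666, the sg2 and sg3 points sit below every sgControl and sg1 point.

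Counted over the members, all 3 sg2 libraries were below all 3 sgControl libraries for 10 of 10 genes, against 34.9% of the table, and the sg3 libraries for 9 of 10, Gm7666 being the exception, against 33.3%. All 6 libraries of sg2 and sg3 were below all 6 of sgControl and sg1 for 9 of 10, against 6.52% of the table (64 genes). In the limma fit over the whole table, 10 members passed the threshold of 0.05 as lower in sg2, where 29.4% of the table did, and 9 as lower in sg3, where 33.4% did. Gm7666 was not past it in sg3 (-0.13, interval -0.26 to -0.0079), but was with the replicate number as a block (limma adjusted p = 0.0292), with scaling to the table total (0.0298) or by the median of ratios over the table (0.0395), and without sg3 replicate 2 (0.0103). Its call in sg2 was lost with the median of ratios off chromosome 15 (limma adjusted p = 0.102) and without sgControl replicate 2 (0.102) or sg2 replicate 1 (0.0902) or 2 (0.0539). Both comparisons called 9 members lower, against 18.9% of the table. Because these contrasts chose the group, the counts restate its choice.

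In sg1, 3 members passed the threshold against sgControl, where 89.2% of the table did: Golph3 (0.22) as higher, and Gm7666 (-0.20) and Skp2 (-0.13) as lower. The call of Golph3 was lost with scaling to the table total (limma adjusted p = 0.942) and with the median of ratios over the table (limma adjusted p = 0.167). That of Skp2 was lost with the median of ratios off chromosome 15 (limma adjusted p = 0.0535) and without sgControl replicate 1 (0.0906) or 2 (0.119) or sg1 replicate 1 (0.0657) or 2 (0.0825). The median of the 10 was 0.07 in sg1, -0.41 in sg2 and -0.32 in sg3, which correspond to 104.7%, 75.3% and 80.0% of sgControl, beside medians over the whole table of 0.20, -0.0167 and -0.0265. The sign in sg1 changed with 2 of the 3 other scalings: with each library scaled to the table total or by the median of ratios over the table, the members' median in sg1 was -0.15 or -0.09 and 9 of 10 were below 0, while with the median of ratios off chromosome 15 it was 0.09 and 7 of 10 were above 0. The table's own median in sg1 moved by -0.21 and -0.15 under the first and second of these scalings. Relative to the table median, the members stood at about -0.13 in sg1, -0.39 in sg2 and -0.29 in sg3 under each of the 3 other scalings. The sg2 and sg3 medians of the members were below 0 under each of them.

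**Figure D2:**
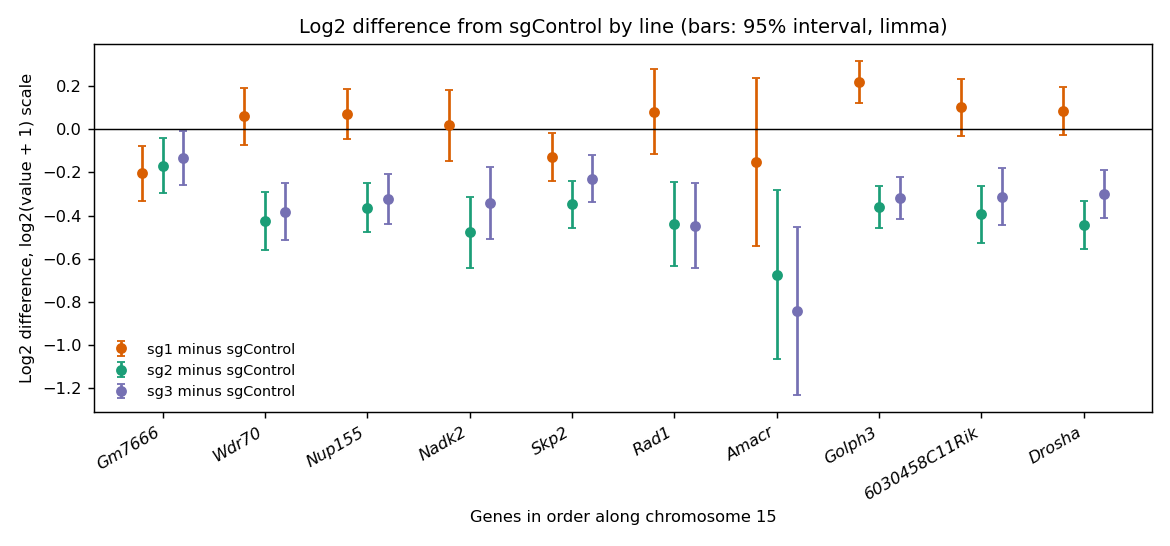
Log2 difference from sgControl of each gene in order along chromosome 15 (vertical axis, log2(value + 1) scale), with points for sg1, sg2 and sg3 and bars for the 95% interval from limma. From Wdr70 to Drosha the sg2 and sg3 points lie between -0.84 and -0.23, and the sg1 points between -0.15 and 0.22.

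Among the 9 genes from Wdr70 to Drosha, the SD over genes was 0.10 in sg2 and 0.18 in sg3, with Amacr lowest in both (-0.67 and -0.84). Without Amacr, which had the fewest reads, the remaining 8 had an SD over genes of 0.05 in sg2 and 0.06 in sg3, beside a median SE of 0.06 per gene. All table genes passed the mean of the guides against sgControl, so genes of the interval with smaller differences may be absent. The spread is thus limited by that selection and is not that of the interval. Their sg2 differences ran from -0.48 (Nadk2) to -0.35 (Skp2), and those of sg3 from -0.45 (Rad1) to -0.23 (Skp2). In sg1 the SD over the same 8 was 0.10, with Golph3 and Skp2 at the ends. Of the table, 186 genes were called lower in both sg2 and sg3, and in genome order the run of 9 from Wdr70 to Drosha was the longest, the next longest being 3. The limit at Drosha was set from these levels, so the run restates the choice of genes, and it is a run over table genes alone, which are 9 of the 38 annotated protein-coding genes there. For genes whose sg2 and sg3 libraries were all below the sgControl and sg1 libraries, no other run was longer than 2.

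The table genes of the rest of the chromosome showed another pattern. After Drosha the table holds no gene for 25.5 Mb, an interval with 61 annotated protein-coding genes that were not analysed here. The next 84 table genes reach to the end of chromosome 15. They include 80 (12.1%) of the 663 protein-coding genes annotated in that part. The first of these 84, G930009F23Rik, averaged 53.3 ± 0.818 normalized counts in sgControl (SD, n = 3), and 156.4 ± 6.82, 59.2 ± 14.8 and 61.6 ± 2.93 with sg1, sg2 and sg3. Fzd6, a Wnt receptor gene and the next one, averaged 534.9, 315.9, 346.1 and 286.2 in the same order. Trps1, a GATA-type transcription factor gene and the third, averaged 6643, 9054, 7760.0 and 8123. Set beside Drosha, the member just inside the limit, none of these 3 had its sgControl and sg1 means close together with both others lower.

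Over the 84 distal genes the median difference from sgControl was 0.64, 0.04 and 0.02 in the 3 edited lines, or 156.0%, 102.7% and 101.1% of sgControl. Called higher were 77 of them in sg1, 10 in sg2 and 11 in sg3, and called lower 6, 9 and 17. Over the whole table, 50.1%, 30.2% and 26.5% were called higher in these lines, and 39.1%, 29.4% and 33.4% lower. The median of the 10 proximal genes minus that of the distal genes was thus negative in every edited line, at -0.58 in sg1, -0.45 in sg2 and -0.34 in sg3, and to this precision it was the same with the 3 other scalings, which move both sets alike. Per library, the gap was -0.63 to -0.58 in sg1, -0.45 to -0.43 in sg2, -0.37 to -0.29 in sg3 and -0.0422 to 0.0404 in sgControl. The 9 edited libraries were thus all below the 3 of sgControl. The 3 lines share sgControl, and the difference between the sets was known when they were chosen, so no test is given. Every table gene also passed the mean of the guides against sgControl, so genes that differed little in all 3 lines are absent from both sets.

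**Figure D3:**
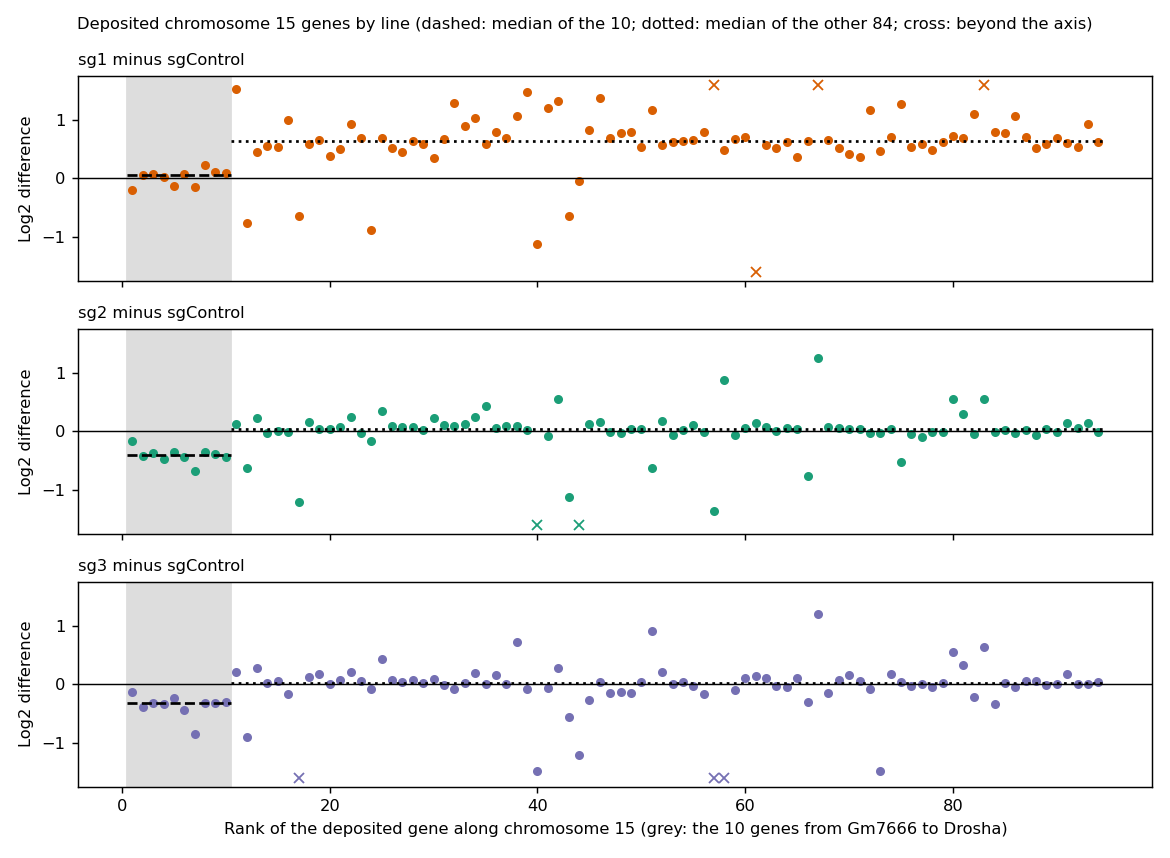
Log2 difference from sgControl (vertical axis) of the 94 table genes of chromosome 15 by their rank along it (horizontal axis), in sg1, sg2 and sg3, with the 10 genes from Gm7666 to Drosha shaded and the medians as lines. In sg1 the shaded genes lie near 0 and the others around 0.64, and in sg2 and sg3 the shaded genes lie at medians of -0.41 and -0.32 and the others near 0.

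**Figure D4:**
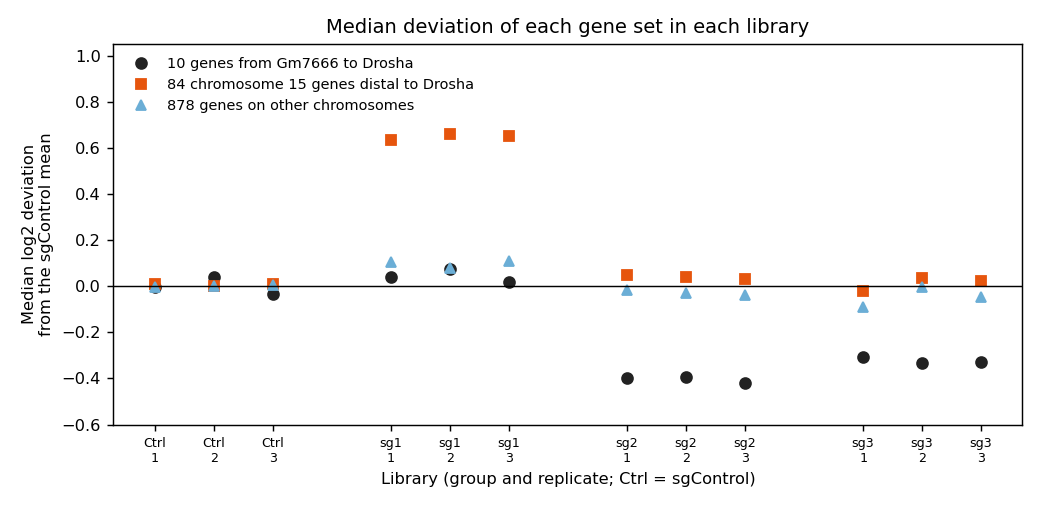
Median log2 deviation from the sgControl mean (vertical axis) in each of the 12 libraries, for the 10 proximal genes, the 84 distal genes of chromosome 15 and the 878 genes on other chromosomes. The proximal median was between -0.42 and -0.31 in the 6 libraries of sg2 and sg3 and between 0.02 and 0.08 in sg1, where the distal median was 0.64 to 0.66.

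Between sg1 and the mean of sg2 and sg3, 9 members passed the threshold as higher in sg1, where 44.9% of the table did, with a median difference of 0.46 over the 10. Gm7666 was the exception at -0.05, and with the median of ratios over the table it was past the threshold as lower in sg1 (-0.18, limma adjusted p = 0.00285). With that scaling and with the table total, Skp2 was not past it (0.0315 and 0.10). This contrast was also known when the group was chosen. Among the 84 distal genes, 76 were called higher and 2 lower in the same contrast, with a median of 0.63.

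The contrast of sg3 with sg2 uses no control library and was tested for each member. The levels of both lines had been seen when the limit at Drosha was set, so these tests are not fully independent of the choice of genes. Drosha was the 1 member of 10 past the threshold, against 30.5% of the table, higher in sg3 by 0.14 (interval 0.0324 to 0.25, limma adjusted p = 0.0475). Its 3 sg3 libraries were all above its 3 sg2 libraries. The call was lost without sg2 replicate 1 (adjusted p = 0.143), 2 (0.0674) or 3 (0.0963), without sg3 replicate 1 (0.0796) or 2 (0.172), and with only these 2 groups in the limma fit (0.097). Over all alternatives its limma adjusted p ran from 0.00911 to 0.172. Skp2 was 0.12 higher in sg3 with no overlap of libraries (interval 0.0097 to 0.23, limma adjusted p = 0.099), and 6030458C11Rik was 0.08 higher with no overlap (interval -0.0517 to 0.22, limma adjusted p = 0.402). With the median of ratios over the table or off chromosome 15, Skp2 was past the threshold as well (limma adjusted p = 0.0386 and 0.0278). These 3 are the members whose sg2 and sg3 libraries did not overlap, a pattern seen in 38.7% of the table.

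For the other 7 genes the limma adjusted p was 0.236 or more. The intervals for sg3 against sg2 were -0.0298 to 0.30 for Nadk2, -0.0897 to 0.18 for Wdr70, -0.0744 to 0.16 for Nup155 and -0.0573 to 0.14 for Golph3. They were -0.20 to 0.19 for Rad1, -0.09 to 0.16 for Gm7666 and -0.56 to 0.22 for Amacr. For Golph3 a difference beyond 0.14 in either direction was thus outside the 95% interval with the deposited scaling. With scaling to the table total the Golph3 estimate itself was 0.1421. For Amacr the interval reached -0.56, with an SE of 0.19, the largest of the 10 and taken from a spread fitted over all 4 groups. The median over the 10 members was 0.04, and -0.022 over the table. It was 0.1434 with scaling to the table total, and 0.0761 and 0.0751 with the medians of ratios over the table and off chromosome 15. Under each of these the members' median stood about 0.06 above that of the table.

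**Figure D5:**
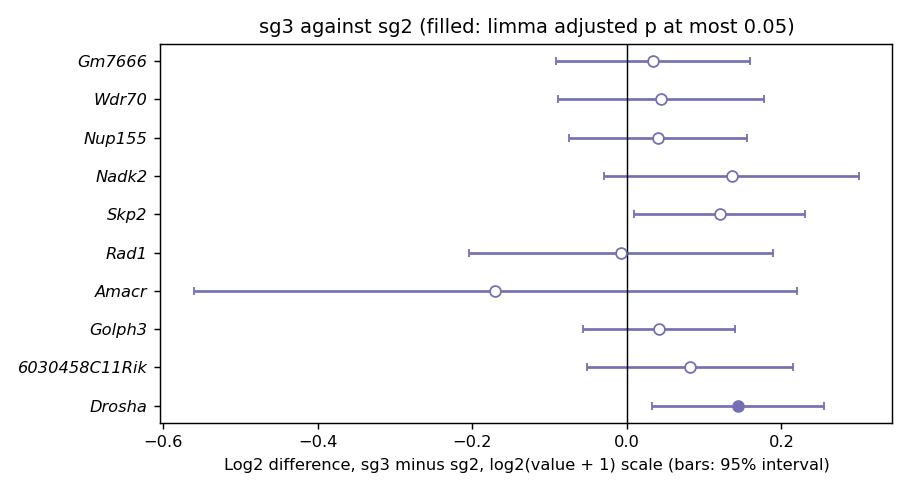
Log2 difference of sg3 minus sg2 (horizontal axis, log2(value + 1) scale) for each of the 10 genes in chromosome order, with bars for the 95% interval from limma and a filled point where the adjusted p was at most 0.05. Only the Drosha point, at 0.14, is filled.

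Divided by the length of the longest annotated transcript, the order of levels in sgControl was Gm7666 (2222 normalized counts per kb), Golph3 (1058), Drosha (614.3), Nup155 (459.2), Wdr70 (312.4), Skp2 (269.1), 6030458C11Rik (239.0), Nadk2 (120.4), Rad1 (72.2) and Amacr (38.6). Neighbours in this order did not overlap between sgControl libraries. The order was the same in all 4 groups for 8 of the 10 genes. Skp2 and 6030458C11Rik changed places in sg1, where their libraries overlapped (242.4 to 249.7 and 239.9 to 266.5 per kb), and in sg3 the lowest Wdr70 and the highest Skp2 library both gave 233.9 per kb.

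Genes known to work with the proteins were looked up from a list of 65, which has none for 6030458C11Rik. Of these, 4 are in the table: 1 of 12 for the Microprocessor and miRNA pathway, 1 of 9 for the inner ring of the nuclear pore, 2 of 6 for NAD(P) metabolism, and 0 of 9 for the SCF complex, 0 of 10 for the 9-1-1 clamp, 0 of 9 for peroxisomal oxidation, 0 of 5 for Golgi partners and 0 of 5 for the CUL4-DDB1 ligase. The others were not analysed here. Ago2, the slicing Argonaute that uses the miRNAs made by Drosha and itself a distal chromosome 15 gene, averaged 6155 ± 226.6 normalized counts in sgControl (SD, n = 3), and 7845 ± 244.4, 7252 ± 953.0 and 6563 ± 675.7 with sg1, sg2 and sg3. It rose in sg1 by 0.35 and in sg2 by 0.23 (limma adjusted p = 0.000625 and 0.0213), and differed by 0.09 in sg3 (limma adjusted p = 0.331).

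Nup188, which sits in the pore's inner ring with Nup155, averaged 3066, 2573, 2878 and 2808 normalized counts in sgControl, sg1, sg2 and sg3, and passed the threshold in sg1 alone, with a difference of -0.25 (limma adjusted p = 0.000592). Nnt, the mitochondrial transhydrogenase that makes NADPH, averaged 439.8, 617.1, 540.7 and 522.6, and rose in sg1 (0.49) and sg2 (0.30). Aldh18a1, the first enzyme of proline synthesis, averaged 1611, 1243, 1384 and 1481, and was lower in sg1 (-0.37) and sg2 (-0.22). None of the 4 passed the threshold in sg3. Every gene of the table passed the threshold when the 3 guides were averaged and set against sgControl, so the calls of these genes are not independent of how the table was made.

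Outside the group, the 5 table genes whose log2 profile over the 12 libraries was most like the mean of the members were Serinc2 on chromosome 4 (Pearson r = 0.98), Osbpl7 on chromosome 11 (0.96), Eva1b on chromosome 4 (0.96), Mmp11 on chromosome 10 (0.94) and Grap on chromosome 11 (0.94). None lies on chromosome 15. Serinc2 averaged 424.2, 468.1, 240.1 and 272.4 normalized counts in sgControl, sg1, sg2 and sg3. In sg2 their differences from sgControl ran from -0.82 (Serinc2) to -3.77 (Osbpl7), beyond the lowest member, Amacr at -0.67, while in sg3 Serinc2 (-0.64) lay above Amacr (-0.84). The points share libraries and lines, so the likeness is a description.

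The table sums were 2069298 to 2713951 normalized counts per library, and 1 feature held 16.1% to 32.9% of them. As the table is part of a library, sequencing depth is unknown. The median SD between replicates was 0.05 to 0.07 on the log2 scale for the members and 0.08 to 0.11 for the table. Of the epithelial markers looked up, 4 of 12 are in the table, Krt8, Krt18, Krt19 and Cgn, and 0 of 6 fibroblast, 0 of 5 immune and 0 of 3 endothelial ones, which in a table selected beforehand says nothing of their levels. The epithelial markers also varied from sgControl to sg1, sg2 and sg3: Krt19 averaged 494.9, 622.3, 401.8 and 182.2 normalized counts in the 4 groups, in the order given, and Cgn 45.0, 101.3, 22.7 and 3.42. Krt8, with 6215, 13330.0, 6019 and 5354, and Krt18, with 5784, 10040.0, 5709 and 4606, differed from sgControl by -0.0466 and -0.0186 in sg2 (limma adjusted p = 0.45 and 0.747) and by -0.22 and -0.33 in sg3 (limma adjusted p = 0.00324 and 4.58e-05). Their part in the levels of the 10 genes was not tested.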

How the data were processed

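RNA from 12 6DT1 libraries (sgControl, sg1, sg2 and sg3, n = 3) was sequenced by the authors as stranded total RNA. The submitters' processing notes name Partek, STAR 2.7.8a and DESeq2. How genes were counted, and on which mouse build and annotation, is not given in the sources used here. The labels' treatment text describes a knockdown in human cells and may not hold for these lines. The deposited values are a normalized signal: for each gene an estimated count over the size factor of its library (0.859 to 1.15, read from the smallest steps). Under 100 reads, 79.0% to 84.6% of values were whole reads (within 0.05), so whole reads could not be recovered and no count model was used. A size factor moves all genes of a library together, and reads shared with similar sequences can move between genes. No column lacked a sample.

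Differences were tested with limma 3.58.1 (R 4.3.3; lmFit, eBayes with trend and robust) on log2(value + 1), which understates changes of low genes, over all 12 libraries without a filter. P-values were two-sided and Benjamini-Hochberg adjusted over 982 genes (threshold 0.05), and the script was tested on simulated data. All 982 genes passed the mean of the guides against sgControl, on which the table appears selected. The members, the lists and the motifs were chosen with earlier results of these data known. Named genes were the 10 members, the 3 table genes after Drosha, listed partners in the table, and the 5 genes with the most similar profile. The markers were added to these. Of the 982 genes, 972 were placed on GENCODE M21. No 2 replicates were duplicates (chi-square over degrees of freedom 12.9 or more). Same-number pairs deviated together (correlation over 0.1) in 3 of 3 pairs between sgControl and sg1 (0.20 to 0.24), 3 of 3 between sgControl and sg2 (0.12 to 0.16), 0 of 3 between sgControl and sg3, and 11 of 18 in all. The pairing rests on these correlations, as no label explains the numbers. Alternatives were other pseudocounts, 3 scalings, a filter at a mean of 50, the replicate block, only the groups compared, and leaving out each library.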

Additional observations from a re-analysis of the deposited data

Results flagged for a closer look

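The difference between sg1 and the mean of sg2 and sg3 passed the limma threshold, as higher in sg1, for 9 of the 10 genes: Wdr70 (0.46), Nup155 (0.41), Nadk2 (0.43), Skp2 (0.16), Rad1 (0.53), Amacr (0.61), Golph3 (0.56), 6030458C11Rik (0.46) and Drosha (0.46). In the same contrast 44.9% of the table and 76 of the 84 distal chromosome 15 genes were called higher, and the position of the 10 had been chosen with this pattern in view. The value for Skp2 was not past the threshold with each library scaled to the table total (0.10, limma adjusted p = 0.284) or by the median of ratios over the table (0.0315, limma adjusted p = 0.545). Drosha was also higher in sg3 than in sg2 by 0.14 (limma adjusted p = 0.0475), a call lost without any 1 of 5 of the 6 libraries compared (limma adjusted p = 0.0674 to 0.172) and with only these groups in the fit (0.097). Clone and guide cannot be told apart in these differences.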

How the results depend on the processing

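The numbers of table genes and of members past the threshold stayed within 1.5 times the reported ones in the sgControl contrasts and in sg1 against sg2 and sg3 under the alternatives run, and the members kept a median below 0 in sg2 and sg3. The members' median in sg1 changed sign, to -0.1473 with scaling to the table total and -0.0884 with the median of ratios over the table. With those scalings it was -0.6128 and -0.4512 in sg2, and in sg3 -0.4236 with the total, while the median of ratios off chromosome 15 gave -0.3524 in sg2 and -0.2312 in sg3. For sg1 against sg2 and sg3 the 3 scalings gave 0.3968, 0.3275 and 0.4033, and for sg3 against sg2 0.1434, 0.0761 and 0.0751. To 2 decimals the gap to the distal genes did not move with the scalings. The share of calls that were higher went from 56.2% to 45.7% in sg1, from 50.7% to 21.9% in sg2, from 44.2% to 27.4% in sg3 and from 44.0% to 57.6% in sg3 against sg2 with the total, from 50.7% to 40.7% in sg2 and from 63.2% to 49.9% in sg1 against sg2 and sg3 with the median of ratios over the table, and to 63.2% in sg2 and 64.7% in sg3 off chromosome 15. Members past the threshold in sg3 against sg2 numbered 2 with both medians of ratios (Skp2 joined Drosha), 0 with only the groups compared, and 0 to 1 when a library was left out. Leaving out a library gave members' medians of 0.0434 (without sg1 replicate 2) to 0.0789 in sg1, 0.04 to 0.0677 (without sg3 replicate 1) in sg3 against sg2 and 0.4364 to 0.4861 in sg1 against sg2 and sg3. The call of Golph3 in sg1 was lost with the total (0.0079) and with the median of ratios over the table (0.0668), that of Skp2 in sg1 in 5 alternatives, and that of Gm7666 in sg2 in 4, while Gm7666 gained one in sg3 in 4 and in sg1 against sg2 and sg3 in 1. With the replicate block 10 of 10 members were lower in sg3, Gm7666 being the addition, table calls were 893, 671, 661, 342 and 727 in the 5 contrasts, and no other member's call changed. Amacr had the fewest estimated reads of the members (45 to 119 per library), and the depth of the libraries is unknown.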
